A study of Mus musculus with 16 samples.

Results

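The genes described are 10 members of the Slc35 family of solute carriers, *Slc35a2*, *Slc35a3*, *Slc35a4*, *Slc35a5*, *Slc35b1*, *Slc35b2*, *Slc35b3*, *Slc35b4*, *Slc35d1* and *Slc35d2*. They were chosen by name and are 10 of the 37583 genes counted. RNA was sequenced from the frontal cortex and the cerebellum of 8 C57BL/6J mice, 4 wild-type and 4 carrying the *Slc39a8* A391T (A393T) variant, with 1 library per region and mouse and therefore 4 libraries in each of the 4 groups. *Slc39a8* encodes a metal ion transporter. The wild-type animals were males aged 12 weeks according to the methods of the study, and whether the variant mice carried 1 or 2 copies is not given in the sources used here. Both regions of a mouse came from the same animal, and a library is named by its region (CTX or CBLM) and the number of its mouse, as in the labels. The A391T cortex libraries are CTX445, CTX446, CTX461 and CTX462, and those of wild-type mice are CTX447, CTX448, CTX479 and CTX480. CBLM libraries with the same numbers are from the cerebellum, and values of 4 libraries are given in this order.

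Nucleotide sugars are made mainly in the cytosol, whereas most glycosyltransferases act inside the endoplasmic reticulum and the Golgi apparatus. Nucleotide sugar transporters of the Slc35 family carry the activated sugars into these compartments, usually in exchange for a nucleoside monophosphate. Related members carry 3'-phosphoadenosine 5'-phosphosulfate (PAPS), the sulfate donor of sulfotransferases, and some members have other or unknown substrates. Loss of *SLC35A2* or *SLC35A3* function is known to cause congenital disorders with neurological features.

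Total counts on genes ranged from 20813432 to 30497206 per library, with a median of 24488842. The 6 cortex markers that were found summed to between 549 and 618 CPM, counts scaled to the library total, in cortex against 67.9 to 92.8 in cerebellum, and 7 cerebellar markers summed to between 3817 and 4324 in cerebellum against 29.8 to 64.7 in cortex. *Slc39a8* itself had mean levels between 2.14 and 2.75 TPM (counts scaled to gene length and library total) in the 4 groups, a level that does not check a point variant. The A391T cerebellar library CBLM445 stood apart, at a chi-square of 57.7 to 69.0 per degree of freedom against its 3 group mates, whereas those differed from each other by 6.79 to 7.63. In wild-type cortex CTX480 differed by 14.1 to 31.9 from its group mates, which differed from each other by 4.81 to 11.2. In the RPKM table the values of CTX447, CTX448, CBLM447 and CBLM448 stand under the numbers of A391T mice and those of CTX461, CTX462, CBLM461 and CBLM462 under the numbers of wild-type mice. Genotype is therefore uncertain for 4 of the 8 animals, and libraries were named here after the count files.

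The members that differed most between the regions were *Slc35b2*, *Slc35d1* and *Slc35a3*, higher in cerebellum, and *Slc35b4*, lower in cerebellum. Their promoter windows are shown because the data compare the transcript output of these genes. RefSeq windows on GRCm38.p6, from 250 bases before to 50 after the transcript start, were used for 8 of the 10 members, with an additional window for *Slc35b3*. The windows lie at chr17:45563686-45563985 on the plus strand and, on the minus strand, at chr4:103215127-103215426, chr3:116712231-116712530 and chr6:34177005-34177304. Capitals mark every match, on either strand, to 5 short motifs: the TATA box as TATAAA, the CCAAT box, the GC box as GGGCGG, an E-box as CACGTG and an ETS-type core as CGGAAG.
Slc35b2: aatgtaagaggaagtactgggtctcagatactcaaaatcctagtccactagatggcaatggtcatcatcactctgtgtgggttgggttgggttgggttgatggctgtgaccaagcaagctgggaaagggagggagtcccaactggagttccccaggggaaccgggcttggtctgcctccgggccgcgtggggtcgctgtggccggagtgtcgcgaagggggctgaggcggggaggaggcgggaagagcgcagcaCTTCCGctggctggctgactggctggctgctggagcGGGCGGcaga
Slc35d1: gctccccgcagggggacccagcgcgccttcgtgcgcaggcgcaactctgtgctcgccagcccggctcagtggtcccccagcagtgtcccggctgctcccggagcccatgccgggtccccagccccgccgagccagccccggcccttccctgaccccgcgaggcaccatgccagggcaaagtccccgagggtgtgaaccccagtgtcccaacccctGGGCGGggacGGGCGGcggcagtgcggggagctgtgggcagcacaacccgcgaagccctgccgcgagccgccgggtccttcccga
Slc35a3: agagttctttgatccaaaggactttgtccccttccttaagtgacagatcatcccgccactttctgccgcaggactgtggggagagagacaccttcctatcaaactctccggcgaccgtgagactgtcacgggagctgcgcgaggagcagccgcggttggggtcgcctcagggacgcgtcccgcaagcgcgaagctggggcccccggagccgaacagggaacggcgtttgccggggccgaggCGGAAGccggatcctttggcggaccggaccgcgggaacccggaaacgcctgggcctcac
Slc35b4: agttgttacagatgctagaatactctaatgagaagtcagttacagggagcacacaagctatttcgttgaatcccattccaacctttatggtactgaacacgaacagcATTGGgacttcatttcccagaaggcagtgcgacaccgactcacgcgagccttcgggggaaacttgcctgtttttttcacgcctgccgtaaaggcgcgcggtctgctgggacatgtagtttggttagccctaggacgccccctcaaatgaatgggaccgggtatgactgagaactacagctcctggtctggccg

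None of these 4 windows held TATAAA or CACGTG. The *Slc35d1* window held 2 GC boxes, the *Slc35b2* window 1 GC box and 1 ETS-type core, both after the transcript start, the *Slc35a3* window 1 ETS-type core and the *Slc35b4* window 1 CCAAT on the opposite strand. *Slc35a4* was left out of the window selection, and *Slc35d2* had no window in it. The member counts and medians given here therefore do not cover these genes. Among the 9 windows of the members, 5 held GGGCGG, against 35.7% of all 32851 windows of that length, and 5 held CGGAAG, against 16.9%. CCAAT was in 2 member windows (37.4% of all windows), TATAAA in 1 (13.6%) and CACGTG in 1 (7.15%). The member windows were rich in GC, with a median of 62.0% against 52.7% over all windows and 21 CG dinucleotides against 7. The *Slc35b4* window, at 51.3% GC and 15 CG dinucleotides, lay below the members' median on both measures. A match is a description of the letters and not a binding site.

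The 10 transporters covered a wide range of levels. Levels of different genes are compared as TPM, with the gene lengths of the deposited table. In wild-type cortex, *Slc35b1*, which encodes an ATP/ADP exchanger of the endoplasmic reticulum, was highest at 72.3 ± 8.73 TPM (SD, n = 4). It was followed by *Slc35a4* at 55.9 ± 0.523, *Slc35b2* at 43.9 ± 3.87, *Slc35a2* at 42.4 ± 2.43, *Slc35a5* at 32.4 ± 0.851, *Slc35b4* at 28.2 ± 1.47 and *Slc35b3* at 16.1 ± 1.61 TPM. *Slc35a3* at 5.01 ± 0.651 and *Slc35d1* at 3.86 ± 0.286 TPM were far lower, and *Slc35d2* was lowest at 0.817 ± 0.186 TPM. The same order held in A391T cortex. In wild-type cerebellum *Slc35b2* took the second place ahead of *Slc35a4*, and in A391T cerebellum *Slc35b2* came first, at 84.1 ± 12.4 TPM against 81.5 ± 6.23 for *Slc35b1*. Without CBLM445 *Slc35b1* was first there too, at 78.5 ± 1.65 TPM against 77.8 ± 0.573 for *Slc35b2* (SD, n = 3). Without CTX480, *Slc35a2* at 43.2 TPM came before *Slc35b2* at 42.1 in wild-type cortex.

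**Figure D1:**
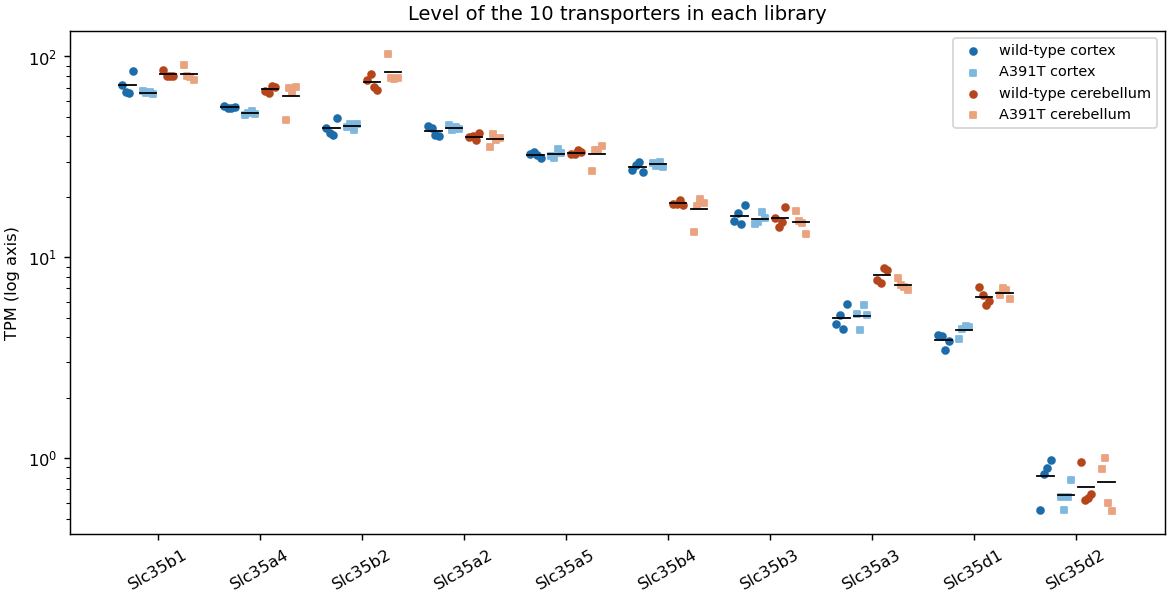
TPM (log axis) of each transporter in each of the 16 libraries, with the black line at the mean of the 4 libraries of a group. From *Slc35b1* near the top to *Slc35d2* below 1.1 TPM the order is much alike in the 4 groups, and the cerebellar points are visibly shifted for *Slc35b2*, *Slc35b4*, *Slc35a3* and *Slc35d1*.

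Several neighbours in this order could not be separated beyond their spread. The ranges of *Slc35b2* and *Slc35a2* overlapped in the cortex of both genotypes, and those of *Slc35b1* and *Slc35b2* in the cerebellum of both. *Slc35b2* and *Slc35a4* also overlapped in wild-type cerebellum, and *Slc35a3* and *Slc35d1* in both A391T regions. In A391T cerebellum the ranges of *Slc35a2* and *Slc35a5* and of *Slc35b4* and *Slc35b3* overlapped as well. *Slc35d2* rested on 8 to 17 counts per library, so that only large differences of this gene were detectable at this depth. In wild-type cortex, 88.8% of the 27196 genes with any count were below *Slc35b1* and 39.8% were below *Slc35d2*.

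The order depends on the annotated length. *Slc35a3*, *Slc35b4* and *Slc35d1* have lengths of 10727, 11070 and 11382 bases in the table, of which little is coding (13.8%, 10.9% and 13.3% of their annotated exon bases), whereas the other 7 members have 2203 to 4608 bases. Without division by length, *Slc35b4* ranked first in wild-type cortex, at 85.1 CPM against 50.9 for *Slc35b1*. Ranks of different members are therefore less firm than differences of 1 member between groups, in which its length cancels.

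The first comparison asked whether transporter expression differs between cerebellum and cortex. In wild-type mice 6 of the 10 transporters passed an adjusted p of 0.05 in edgeR's quasi-likelihood test, 4 higher in cerebellum (*Slc35b2*, *Slc35d1*, *Slc35a3*, *Slc35a4*) and 2 lower (*Slc35b4*, *Slc35a2*). Over all 16040 genes tested the share was 67.8%, with 34.7% higher and 33.1% lower, so the count of the transporters lay near that of genes in general. None of the 10 also reached a 2-fold difference, against 24.7% of all genes. The median size of the log2 fold change was 0.28 for the transporters and 0.46 for all genes. In A391T mice 5 transporters passed, 3 higher (*Slc35b2*, *Slc35d1*, *Slc35a3*) and 2 lower (*Slc35b4*, *Slc35a2*), against 62.8% of all genes, 31.6% higher and 31.3% lower. None of them reached 2-fold, against 24.7% of all genes, and the median sizes were 0.25 and 0.45.

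**Figure D2:**
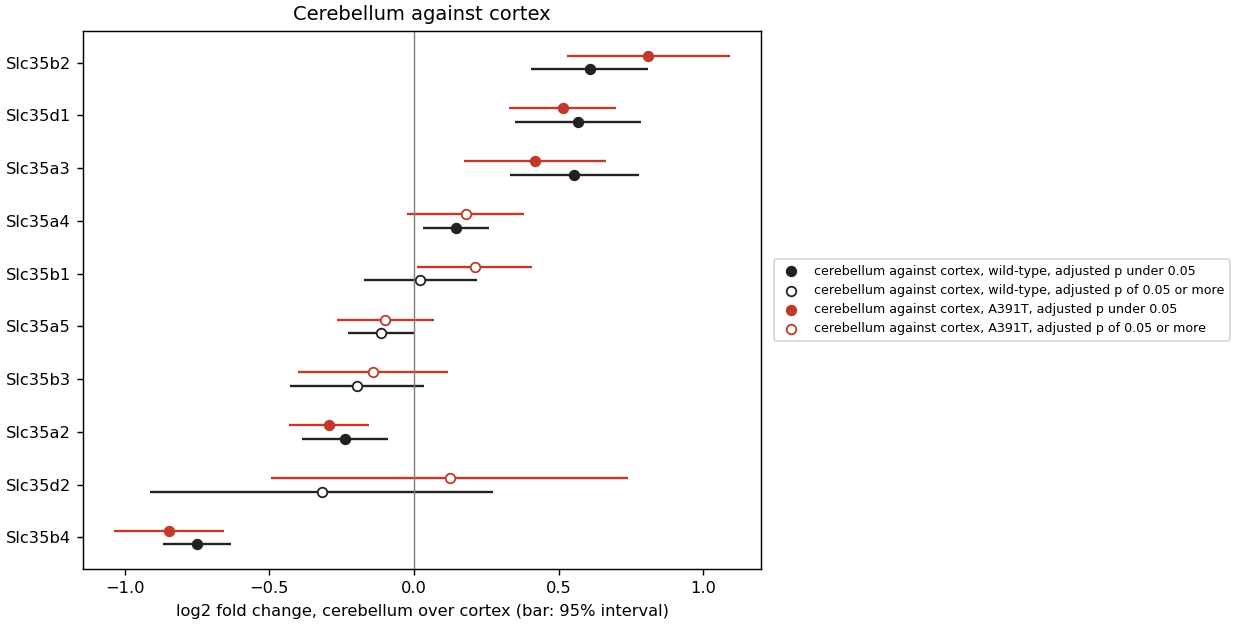
Fitted log2 fold change of each transporter, cerebellum over cortex, with its 95% interval, in wild-type (black) and A391T mice (red). Filled symbols passed an adjusted p of 0.05, and *Slc35b2* and *Slc35b4* lie at the ends of the called members in both genotypes.

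Values of single libraries are given below as normalized CPM, scaled by the trimmed mean of M values (TMM) over all 16 libraries, the scale closest to the test. Positions of the genes are those of the mm9 (NCBIM37) annotation, the build of the counts, and all 10 are protein-coding. TPM without this scaling set the median of all genes 0.17 log2 units higher in cerebellum in wild-type and 0.13 in A391T mice, against 0.02 and 0.04 in normalized CPM. In bulk tissue, fewer cells of a type and less RNA per cell cannot be told apart. The cellular makeup of the regions differed, with 5 astrocyte markers summing to 2065 to 2446 CPM in cerebellum and 983 to 1184 in cortex, and 5 microglia markers to 62.8 to 89.2 and 258 to 308. Their part in the differences was not tested.

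*Slc35b2* (ENSMUSG00000037089, chr17:45700909-45704619, plus strand) encodes PAPST1, a Golgi transporter of PAPS. In wild-type cortex it was at 29.5, 26.9, 26.2 and 32.6 normalized CPM, and in the cerebellum of the same mice at 45.8, 49.2, 41.1 and 39.6. Every cerebellar library was above every cortical one. This was a log2 fold change of 0.61 (SE 0.091, adjusted p = 0.00012), a 1.52-fold higher level in cerebellum. In A391T mice the gene was at 28.9, 29.6, 27.8 and 30.4 in cortex and at 68.1, 46.6, 45.9 and 46.4 in cerebellum. CBLM445 was far above the other 3, which lay within the wild-type range. In the fit it was 0.81 (SE 0.13, adjusted p = 0.00029) with this library and 0.66 (SE 0.049, adjusted p = 2.0e-07) without it.

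*Slc35b3* (ENSMUSG00000021432, chr13:39024009-39052744, minus strand) encodes PAPST2, the other PAPS transporter. Its level was 8.96 to 11.5 normalized CPM in wild-type cortex and 8.15 to 9.90 in wild-type cerebellum, and the regions overlapped. Its log2 fold change was -0.20 (95% interval -0.43 to 0.04, adjusted p = 0.12) in wild-type and -0.14 (-0.40 to 0.12, adjusted p = 0.31) in A391T mice. Without CBLM445, in which *Slc35b3* was highest at 10.7 against 7.40 to 8.62, the A391T value was -0.24 (adjusted p = 0.026). Of the annotated exon bases of *Slc35b3*, 11.6% overlap the lincRNA 5033403F01Rik on the opposite strand, and counting did not use strand.

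The ratio of the transporters for PAPS needs no scaling between libraries. Within wild-type cortical libraries the *Slc35b2* level per length was 2.93, 2.48, 2.79 and 2.71 times that of *Slc35b3*, and in the cerebellar libraries 4.90, 5.75, 4.71 and 3.82 times. In A391T mice the ratio was 3.03, 3.06, 2.58 and 2.96 in cortex and 6.07, 5.15, 5.18 and 5.98 in cerebellum. The regions did not overlap in either genotype, and the ratio rose in each of the 8 mice. The mean log2 ratio was 0.80 higher in wild-type and 0.94 higher in A391T cerebellum (two-sided exact permutation test, p = 0.029 in each, the smallest that 4 against 4 libraries allows; 0.043 after Benjamini-Hochberg adjustment over 6 ratio tests). With the mouse as a block, the exact sign-flip test gave p = 0.13, the smallest that 4 pairs allow.

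*Slc35b4* (ENSMUSG00000018999, chr6:34103380-34127111, minus strand) encodes a transporter of UDP-xylose and UDP-N-acetylglucosamine and was the member with the largest fitted difference between regions. In wild-type cortex it was at 87.2, 90.2, 92.3 and 84.9 normalized CPM, and in cerebellum at 53.0, 53.1, 53.8 and 51.1. Spread within either group was small against the gap. This gave a log2 fold change of -0.75 (SE 0.053, adjusted p = 2.4e-07), a 1.68-fold lower level in cerebellum. In A391T mice it was at 91.8, 88.3, 92.1 and 88.4 in cortex and at 42.7, 51.5, 55.3 and 53.2 in cerebellum, with CBLM445 lowest. Here the log2 fold change was -0.85 (SE 0.085, adjusted p = 1.2e-05), and -0.77 (adjusted p = 1.5e-08) without that library. On the opposite strand, the processed transcript Gm13856 overlaps 10.0% of the annotated exon bases of *Slc35b4*.

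Genes whose pattern over the 16 libraries was most like that of *Slc35b4* were *Cdk14* (Pearson r = 0.998), *Sulf2* (r = 0.997) and *Magi3* (r = 0.997), in log2 CPM among 16589 genes. *Cdk14* encodes a cyclin-dependent kinase, *Sulf2* an extracellular sulfatase of heparan sulfate and *Magi3* a scaffold protein. The 16 points fall into the 2 regions and share library preparation and depth, so r mostly describes the regional difference, which was larger in these genes (log2 fold change -1.81, -2.18 and -1.67 in wild-type mice).

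*Slc35d1* (ENSMUSG00000028521, chr4:102843254-102887769, minus strand) encodes a transporter of UDP-glucuronic acid and UDP-N-acetylgalactosamine that is needed for chondroitin sulfate in cartilage. It was at 13.5, 13.0, 11.0 and 12.5 normalized CPM in wild-type cortex and at 21.0, 19.3, 16.5 and 17.3 in wild-type cerebellum. A391T mice had 12.5, 14.0, 14.4 and 14.6 in cortex and 21.1, 20.6, 20.2 and 18.2 in cerebellum. All 8 cerebellar libraries were above all 8 cortical ones. Fitted log2 fold changes were 0.57 (SE 0.099, adjusted p = 0.00036) in wild-type and 0.51 (SE 0.083, adjusted p = 0.00037) in A391T mice.

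*Slc35d2* (ENSMUSG00000033114, chr13:64197618-64230638, minus strand), which encodes a Golgi transporter of UDP-N-acetylglucosamine and other nucleotide sugars, had 9, 16, 13 and 14 counts in wild-type cortex and 15, 10, 10 and 10 in wild-type cerebellum. Its log2 fold change was -0.32 in wild-type (95% interval -0.91 to 0.27, adjusted p = 0.32) and 0.12 in A391T mice (-0.49 to 0.74, adjusted p = 0.72), or -0.01 without CBLM445. The level of *Slc35d1* per length was 3.87 to 7.45 times that of *Slc35d2* in wild-type cortex and 7.40 to 10.5 times in cerebellum, with overlapping ranges (difference of the mean log2 ratio 0.89, exact permutation p = 0.057, adjusted p = 0.069). In A391T mice the ratio was 5.78 to 8.01 in cortex and 6.99 to 11.6 in cerebellum (0.44, exact permutation p = 0.14, adjusted p = 0.14).

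*Slc35a3* (ENSMUSG00000027957, chr3:116372387-116415749, minus strand), the UDP-N-acetylglucosamine transporter gene, was at 14.4, 15.6, 13.1 and 18.0 normalized CPM in wild-type cortex and at 21.4, 20.8, 24.0 and 23.6 in wild-type cerebellum. The A391T values were 15.7, 13.0, 17.2 and 15.7 in cortex and 24.4, 20.2, 19.7 and 19.0 in cerebellum. The regions were separate in both genotypes. The log2 fold change was 0.55 (SE 0.10, adjusted p = 0.00052) in wild-type and 0.42 (SE 0.11, adjusted p = 0.0074) in A391T mice, where it was 0.34 (adjusted p = 0.0039) without CBLM445, the highest library. *Slc35a3* shares 2.70% of its annotated exon bases with *Hiat1* on the same strand.

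*Slc35a2* (ENSMUSG00000031156, chrX:7461167-7471618, plus strand) encodes the UDP-galactose transporter and is X-linked. It was at 32.0, 30.4, 27.9 and 28.3 normalized CPM in wild-type cortex and at 25.2, 25.8, 23.7 and 25.9 in cerebellum. In A391T mice it was at 31.4, 29.6, 30.5 and 30.4 in cortex and at 25.2, 26.2, 24.2 and 24.9 in cerebellum. No cerebellar library reached the lowest cortical one. The log2 fold change was -0.24 (SE 0.068, adjusted p = 0.0085) in wild-type and -0.30 (SE 0.062, adjusted p = 0.0021) in A391T mice. Scaling by library totals alone, which moved the median of all genes in wild-type mice from 0.02 to 0.14, gave -0.12 in wild-type (adjusted p = 0.15). The call was also lost in both genotypes with only the mice named alike in both sources, 2 per genotype, at -0.18 (adjusted p = 0.21) and -0.27 (adjusted p = 0.16).

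*Slc35a2* and *Slc35a3*, whose products are known to associate in the Golgi membrane, thus differed in opposite directions. The level of *Slc35a2* per length was 9.71, 8.50, 9.28 and 6.84 times that of *Slc35a3* in wild-type cortex and 5.12, 5.41, 4.31 and 4.79 times in cerebellum. In A391T mice it was 7.73 to 9.90 times in cortex and 4.50 to 5.71 times in cerebellum. The mean log2 ratio changed by -0.80 from cortex to cerebellum in wild-type and by -0.71 in A391T mice, without overlap and in each of the 8 mice (exact permutation test, p = 0.029 in each, adjusted p = 0.043). The exact sign-flip test with the mouse as a block gave p = 0.13, again the smallest possible.

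**Figure D3:**
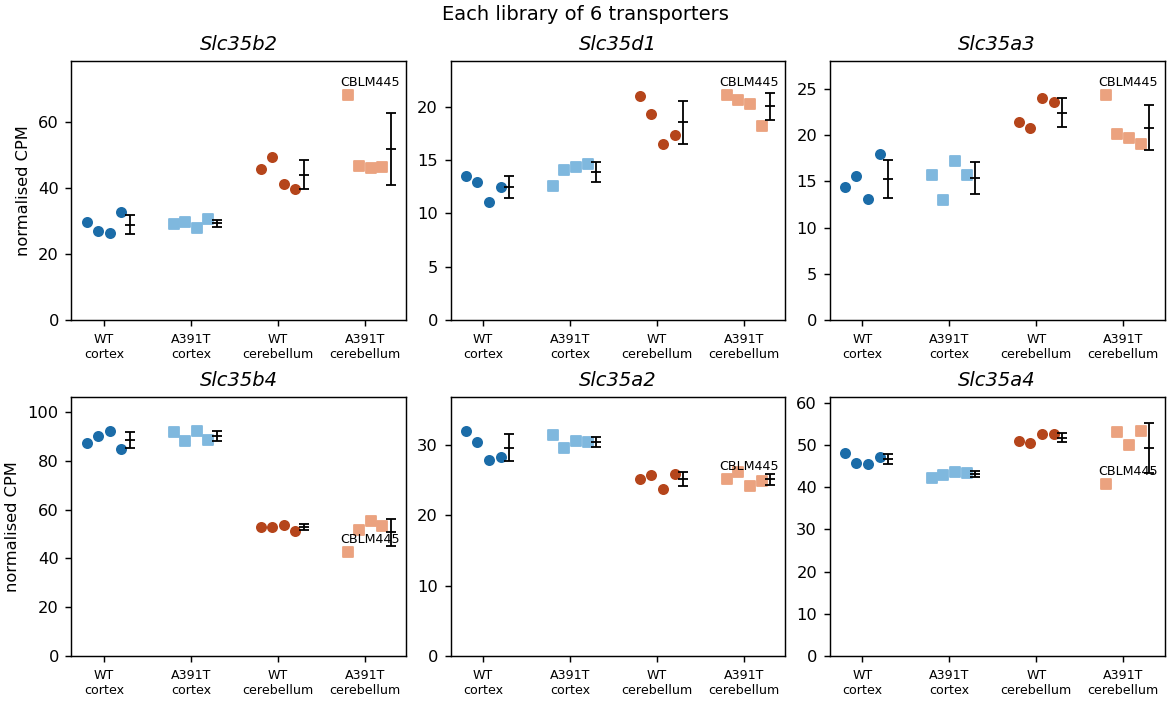
Normalized CPM of the 6 transporters called in wild-type mice, 1 point per library (wild-type circles, A391T squares, libraries in order of mouse number), with mean and SD at the right of each group and axes from 0. The regions separate in all panels except for the A391T library CBLM445 (marked), which lies below the cortical values of *Slc35a4* and apart from its group for *Slc35b2*.

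**Figure D4:**
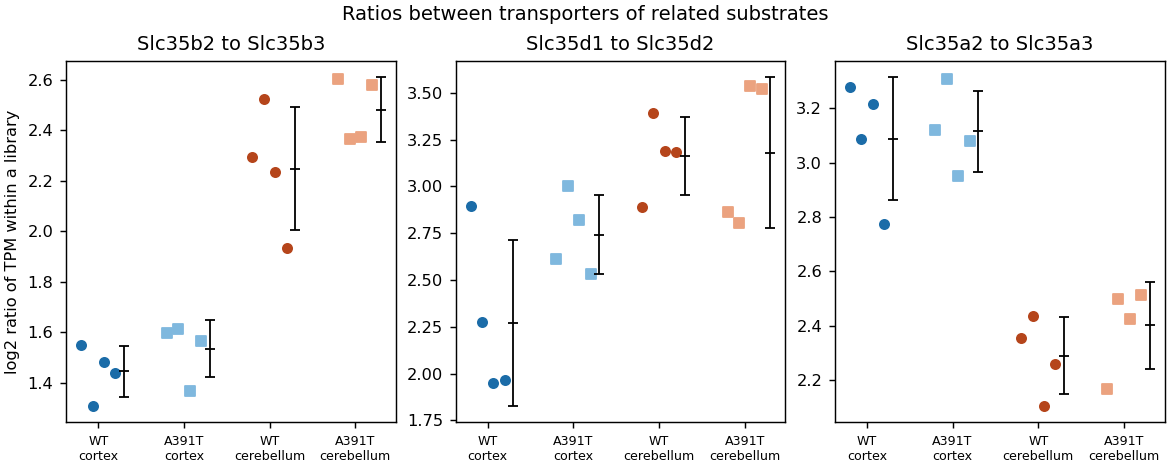
log2 ratio of the length-normalized levels of 2 transporters in the same library, 1 point per library, with mean and SD at the right of each group. The cerebellar points are above the cortical ones for *Slc35b2* to *Slc35b3*, below them for *Slc35a2* to *Slc35a3*, and overlap them for *Slc35d1* to *Slc35d2*.

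*Slc35a4* (ENSMUSG00000033272, on chromosome 18), a member with few known functions whose coding sequence lies in 1 exon, differed little. It was at 48.0, 45.8, 45.6 and 47.1 normalized CPM in wild-type cortex and at 51.0, 50.6, 52.6 and 52.6 in cerebellum, without overlap. The log2 fold change of 0.15 (SE 0.052) passed narrowly, with an adjusted p of 0.027, but not with the mouse as a block (0.15, adjusted p = 0.062) or in DESeq2 (0.13, adjusted p = 0.050). The call was also lost when any 1 of 4 libraries was left out (CTX448, CTX479, CBLM479 or CBLM480, with adjusted p = 0.064, 0.064, 0.12 and 0.056). In A391T mice the level was 42.2 to 43.7 in cortex and 40.8, 53.0, 50.1 and 53.3 in cerebellum, the low value being that of CBLM445. The log2 fold change was 0.18 (adjusted p = 0.11) with this library and 0.27 (adjusted p = 0.00019) without it.

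*Slc35a5* (ENSMUSG00000022664, chr16:45139686-45158819, minus strand), which has no firmly established substrate, and *Slc35b1* did not pass between regions in either genotype. *Slc35a5* was at 41.3 to 43.5 normalized CPM in wild-type cortex and at 38.7 to 39.6 in cerebellum (log2 fold change -0.12, 95% interval -0.23 to -0.00105, adjusted p = 0.069). A391T mice gave -0.10 (adjusted p = 0.27), and -0.04 (adjusted p = 0.48) without CBLM445. In wild-type mice *Slc35a5* passed the threshold without CTX480 (-0.13, adjusted p = 0.037). *Slc35b1* (ENSMUSG00000020873, chr11:95246006-95253090, plus strand) was at 47.2 to 62.5 in wild-type cortex and at 51.8 to 57.0 in cerebellum (0.02, 95% interval -0.17 to 0.22, adjusted p = 0.85). In A391T mice it was at 47.0 to 48.5 in cortex and at 66.9, 53.1, 52.1 and 50.6 in cerebellum (0.21, adjusted p = 0.063). Without CBLM445, the highest of these, the value was 0.12 (adjusted p = 0.027), and without CBLM462 it was 0.25 (adjusted p = 0.041).

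Leaving out CBLM445 raised the number of transporters called in A391T mice from 5 to 8, with *Slc35a4* and *Slc35b1* added among those higher and *Slc35b3* among those lower in cerebellum. The share over all genes also rose, from 62.8% to 72.7% of the 16226 genes then tested. This library was the farthest from the others of its group in 7 of the 10 members. CTX480 was the farthest of wild-type cortex in 5 of the 10. Without it *Slc35a5* was called in addition in wild-type mice. The share of all genes called in that fit is not given here, so nothing about the transporters as a set is read from it. The uncalled values of *Slc35b1* and *Slc35b3* were then 0.11 (adjusted p = 0.15) and -0.14 (adjusted p = 0.25), against 0.02 and -0.20 with it.

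Markers of the choroid plexus, which lies in the ventricle next to the cerebellum, differed between cerebellar libraries. Their 5 genes summed to 25.3 CPM in CBLM479 (wild-type) and 23.2 in CBLM462 (A391T), close to the 6.49 to 23.1 of cortex, but to between 891 and 2756 in the other cerebellar libraries. *Slc35d1* had its lowest value of the cerebellar group in each of these 2 libraries, 16.5 and 18.2 normalized CPM, which were above the highest cortical value of 14.6. *Slc35b2* (41.1 and 46.4) and *Slc35a3* (24.0 and 19.0) were above all cortical libraries there, and *Slc35b4* (53.8 and 53.2) below them. The part of the choroid plexus in the regional differences was not tested.

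The other genes of the pathway were taken from 3 lists. Of 17 further Slc35 genes, 16 could be tested in wild-type mice, and 5 were higher, 5 lower and 6 not called. The largest differences were lower levels in cerebellum of *Slc35f4* (log2 fold change -2.79, adjusted p = 4.3e-09), *Slc35d3* (-2.64, adjusted p = 5.4e-06) and *Slc35f1* (-1.20, adjusted p = 1.0e-06), and a higher level of *Slc35g2*, named *Tmem22* in the files (0.87, adjusted p = 1.0e-06). In A391T mice 5 were higher, 4 lower and 7 not called. Over all genes 67.8% were called in wild-type and 62.8% in A391T mice, and nothing particular to this list or the next 2 is read from their counts. The 3 lower genes were past 2-fold in both genotypes, as was *Slc35g2* (*Tmem22*) in A391T mice (1.49, adjusted p = 0.00018).

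Of 14 genes of nucleotide sugar and PAPS synthesis, 3 were higher, 5 lower and 6 not called in wild-type mice, and 1 was higher, 4 lower and 9 not called in A391T mice. *Gfpt2*, an isoenzyme of the first step to UDP-N-acetylglucosamine, was lower in cerebellum (-1.45, adjusted p = 1.6e-05), as was *Uap1*, of the last step to it (-0.62, adjusted p = 7.3e-06). *Gnpnat1*, of a step between them, was higher in wild-type (0.44, adjusted p = 0.020) and A391T mice (0.38, adjusted p = 0.014). *Gfpt1* (0.13, adjusted p = 0.18) and *Pgm3* (0.17, adjusted p = 0.082), of the same route, were not called in wild-type mice. *Papss2*, a PAPS synthase, was also lower (-1.15, adjusted p = 4.5e-07), and the other synthase gene *Papss1* was not called (-0.07, adjusted p = 0.43). *Gnpnat1*, *Gfpt1*, *Pgm3* and *Papss1* were named after their values were seen. *Uxs1*, which makes UDP-xylose, was lower (-0.63, adjusted p = 1.0e-05). In A391T mice *Uxs1* was at -0.31 (adjusted p = 0.16).

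The nucleoside diphosphate and the phosphoadenosine phosphate left in the lumen by sugar and sulfate transfer are broken down by lumenal hydrolases. Of 6 such genes, 1 was higher, 2 lower and 3 not called in wild-type mice, and 1 higher, 1 lower and 4 not called in A391T mice. *Entpd6* was lower in wild-type cerebellum (-0.60, adjusted p = 7.6e-06) and *Entpd5* higher (0.34, adjusted p = 0.00015), both genes of nucleoside diphosphatases. *Impad1*, of the Golgi phosphatase for phosphoadenosine phosphate, was lower (-0.18, adjusted p = 0.0076). In A391T mice *Entpd6* and *Entpd5* were called in the same directions, and *Impad1* was not called (-0.11, adjusted p = 0.20). The median size of the fold change was 0.24, 0.26 and 0.14 in the 3 lists, against 0.46 for all genes.

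The second comparison asked whether the A391T variant changed transporter expression. None of the 10 passed in either region, where 0.0126% of all genes did in cortex (2 of 15815) and 0% in cerebellum (0 of 15668). At an unadjusted p under 0.05, edgeR gave 1 of the 10 members in cortex (*Slc35a4*) against 4.73% of all genes, and 0 in cerebellum against 8.55%. DESeq2 called 0 members in either region. In cortex *Slc35a4* was at 42.2, 42.9, 43.7 and 43.5 normalized CPM in A391T mice and at 45.6 to 48.0 in wild-type mice, without overlap (log2 fold change -0.12, unadjusted p = 0.048, adjusted p = 1.0). This separation depended on the mouse names. With the names of the RPKM table the log2 fold change of *Slc35a4* was -0.02, and its levels overlapped, at 51.2 to 56.6 TPM in A391T and 52.0 to 55.8 in wild-type cortex.

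**Figure D5:**
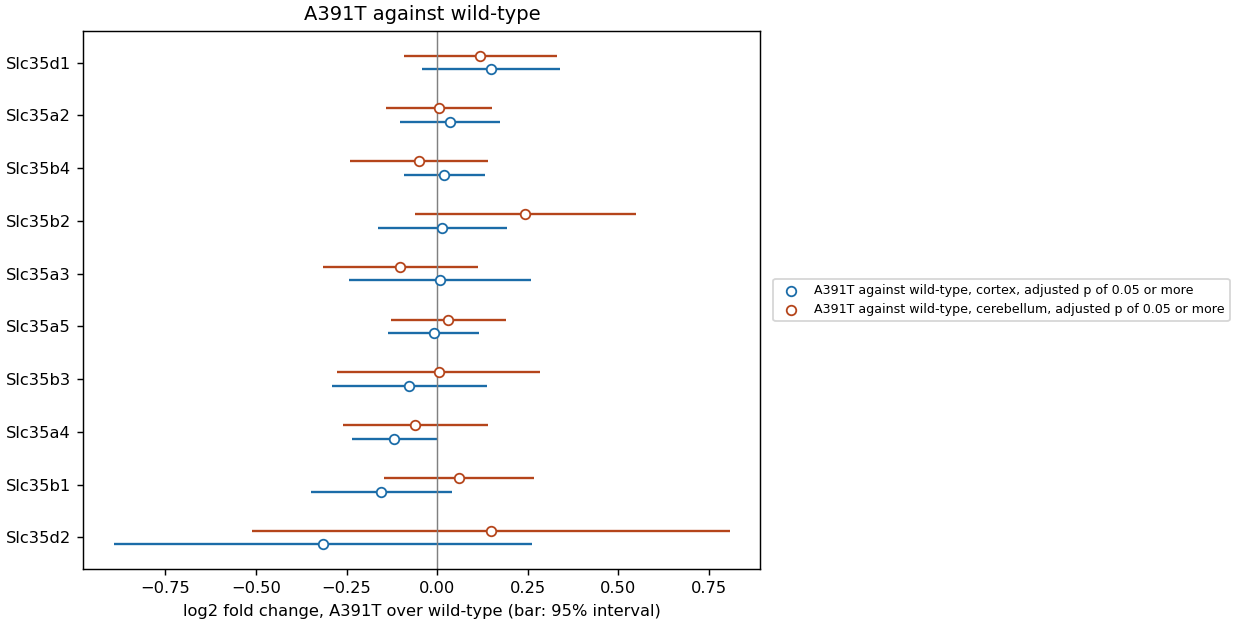
Fitted log2 fold change of each transporter, A391T over wild-type, with its 95% interval, in cortex (blue) and cerebellum (orange). No member passed an adjusted p of 0.05, and all intervals but those of *Slc35d2* and of *Slc35b2* in cerebellum stay within 0.35 log2 units of 0.

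The intervals hold for the mouse names of the count files, and 4 of the 8 mice carry the name of another mouse in the RPKM table. In cortex the 95% intervals lay within -0.35 and 0.34 for the 9 members other than *Slc35d2*, and for *Slc35b4* within -0.09 and 0.13. In cerebellum *Slc35b2* had the widest of these 9, from -0.06 to 0.55 around 0.24 (adjusted p = 0.53), and without CBLM445 its value was 0.08. With only the 4 mice named alike in both sources, where CBLM445 is 1 of 2 A391T cerebellar libraries and CTX480 1 of 2 wild-type cortical ones, the 10 values lay between -0.16 and 0.66 in cerebellum and between -0.68 and 0.16 in cortex. The highest in cerebellum were *Slc35d2* at 0.66 (0.15 with all 8 mice), *Slc35b2* at 0.51 and *Slc35d1* at 0.31 (0.12), the lowest in cortex was *Slc35d2* (-0.32 with all 8), and none passed an adjusted p of 0.05. With only CBLM445 left out, *Slc35d2* and *Slc35d1* were at 0.01 and 0.09 in cerebellum. *Slc35d2* had intervals of -0.89 to 0.26 in cortex and -0.51 to 0.81 in cerebellum. The A391T cortical library CTX461 had a striatal marker sum of 175 CPM against 404 to 607 in the other 7 cortical libraries, and leaving it out changed the call of 0 of the 30 member values that include it. Without CTX480 the cortical value of *Slc35b1* was -0.06 (-0.15 with it).

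The regional difference itself was compared between genotypes by the interaction over all 16 libraries. None of the 10 members passed, with 0% of the 16589 genes tested, and 0 members had an unadjusted p under 0.05, against 4.85% of all genes, while DESeq2 likewise called 0 members. The interaction was 0.22 for *Slc35b2* (95% interval -0.13 to 0.57, adjusted p = 0.77) and 0.20 for *Slc35b1* (-0.08 to 0.48, adjusted p = 0.77). Without CBLM445 these were 0.06 and 0.11, and without CTX480 0.16 and 0.12. With only the mice named alike in both sources, a set in which both of these libraries are 1 of 2 in their group, they were 0.52 and 0.41, and the interaction of *Slc35d2* was 1.31 against 0.46 with all mice, with 0 members passing. For *Slc35b4* the interaction was -0.08 (-0.29 to 0.12, adjusted p = 0.82), -0.004 without CBLM445 and -0.18 with only the mice named alike. A call in one genotype and not in the other, as for *Slc35a4*, is therefore not shown to differ between them.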

How the data were processed

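RNA of cortex and cerebellum from 4 wild-type and 4 A391T mice was sequenced as 16 polyA-selected, directional libraries. According to the study's methods and the submitters' processing notes, the authors mapped to mm9 by STAR and made counts per Ensembl gene by HTSeq. The deposited counts are raw whole numbers, made without regard to strand. Entries on no single gene (21.4% to 27.1% per library) stayed out of totals and tests. The authors also deposited RPKM values in 1 table, used here for gene names, gene lengths and the check of library names. There, 8 of 16 columns, of 4 mice, carry the name of another mouse. No value column was left unmatched.

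TPM and CPM were computed from the counts. edgeR 4.0.16 in R 4.3.3 (limma 3.58.1) was fitted to all genes kept by filterByExpr, with TMM normalization, the quasi-likelihood test and Benjamini-Hochberg adjustment, with calls at adjusted p-values under 0.05. A stricter rule also asked for a log2 fold change of 1 or more in either direction. Cortex and cerebellum were compared within a genotype, genotypes within a region, and the interaction over 16 libraries. Tested on simulated counts, the region comparison in wild-type mice recovered 200 of 200 genes changed by 1 log2 unit with 11 false calls among 16040 genes, and the genotype comparison in cortex 199 of 200 with 11 among 15815. The changed genes were drawn from levels above that of *Slc35d2*, and no outlier library was simulated. Between the real regions far more genes differed, and every member's fitted difference was under 1 log2 unit. The recovery is therefore not the power for the members. Ratios within a library were tested with exact permutation tests in scipy 1.17.1. Without the mouse as a block, the p-values measure the spread between libraries of a group, each from another mouse. They then treat both regions of a mouse as independent.

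Cortex and cerebellum share the mouse by the labels. Deviations from the group means had a correlation of -0.19 to 0.25 between the 2 libraries of a mouse (median -0.09), against -0.28 to 0.25 between mice. The fit with mouse as a block was an alternative, as were DESeq2 1.42.0, other scaling and filters, other library names and leaving out each library.

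All 10 members are named. From each list, up to 4 genes with the largest called difference between regions in wild-type mice are named, and the 3 genes most like the member with the largest difference. The text marks 4 further genes of the synthesis list, named after their values were seen. The members and lists were chosen with earlier results of these data known. Promoter windows are from RefSeq. Counts of libraries of 1 group differed by more than counting error (chi-square per degree of freedom 2.93 to 69.0), and 3 counts, a floor for counting error only, equal 0.0984 to 0.144 CPM.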

Additional observations from a re-analysis of the deposited data

Results flagged for a closer look

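Among 40 sets of 4 libraries (10 members in 4 groups), 3 had a library farther from its neighbours than Dixon's 95% limit, where chance gives about 1 in 20. In A391T cerebellum CBLM445 was highest for *Slc35b2*, at 68.1 normalized CPM against 45.9 to 46.6, and for *Slc35b1*, at 66.9 against 50.6 to 53.1. In wild-type cerebellum CBLM447 was highest for *Slc35d2*, at 0.594 normalized CPM against 0.380 to 0.399, which is a difference of 15 against 10 counts.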

How the results depend on the processing

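Of 913 repeats of a member's log2 fold change under another setting, 889 stayed on their side of the threshold and 0 called values reversed. The 24 that changed their call were all among the 356 repeats between regions. The other 557, of genotype and interaction, had no call in the main fit and gained none. *Slc35a4* in wild-type mice lost its call in 10 of its 18 repeats between regions. With a 2-fold difference required in addition, 0 transporters were called between regions in wild-type mice and 0 in A391T mice, against 24.7% of all genes in each genotype. Leaving out 1 library gave 5 to 7 called transporters in wild-type and 5 to 8 in A391T mice. The 8 were called without CBLM445, where 72.7% of all genes were called. Other scaling changed the split of calls in wild-type mice from 4 higher and 2 lower to 3 and 3 with RLE factors and to 4 and 1 with library totals, and in A391T mice from 3 and 2 to 5 and 2 with library totals, under which the median of all genes was 0.14 and 0.16. *Slc35a4* in wild-type mice also lost its call with RLE factors, with no filter and with all 16 libraries in 1 model (adjusted p = 0.051, 0.072 and 0.079), and in A391T mice *Slc35a4* and *Slc35b1* passed in that model (0.025 and 0.042) and with library totals (0.016 and 0.0046). *Slc35a5* in wild-type mice passed with RLE factors (0.036). *Slc35a4* in wild-type mice lost its call with mouse as a block, and the block with the count files' names changed no other call. *Slc35b3* in wild-type mice passed only with the block and the table's names together (-0.25, adjusted p = 0.048). With the 4 mice named alike in both sources alone, 4 transporters were called in each genotype, and *Slc35a2* lost its call in both (adjusted p = 0.21 and 0.16) and *Slc35a4* in wild-type mice (0.16). Apart from the 2-fold rule and the fit without CBLM445, no share of all genes is set beside the counts here. Nothing particular to the transporters is read from them. Counts between genotypes and of the interaction stayed at 0 under all settings run.

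The log2 ratio of *Slc35b2* to *Slc35b3* differed by 0.71 to 0.91 in wild-type and 0.89 to 0.98 in A391T mice when 1 library was left out, and that of *Slc35a2* to *Slc35a3* by -0.90 to -0.74 and -0.77 to -0.64. The exact p was then 0.057, the smallest for 3 against 4. With mouse as a replicate block the differences were 0.80, 0.94, -0.80 and -0.71 (exact sign-flip test, p = 0.13 for each). The ratio of *Slc35d1* to *Slc35d2* in wild-type mice was 1.04 with the names of the table (exact permutation p = 0.029) against 0.89, and in A391T mice 0.29 (exact permutation p = 0.29) against 0.44, and leaving out 1 library gave 0.78 to 1.10 in wild-type and 0.32 to 0.56 in A391T mice. Without division by length 32 of 40 ranks changed, and with the table's names 2 of 40. Leaving out 1 library, a setting chosen after seeing the data, changed 2 ranks without CBLM445 and 2 without CTX480, and 0 without any of the other 14. A filter of 1 CPM in 4 libraries removed *Slc35d2*.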
